A study of Rattus norvegicus with 48 samples.

Results

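MicroRNA-21 (miR-21) was followed in rat liver through its row, rno-miR-21, which was 1 of the 143 miRNAs in the deposited NanoString nCounter table of 48 animals. In this assay miRNAs are tallied by colour-coded probes made for them, and miR-20a and miR-20b-5p share a row. The row was taken because miR-21 is the target of AM21, a locked nucleic acid oligonucleotide antisense to it, and not for any value it had here. A mature miRNA guides an Argonaute protein to messenger RNAs that pair with its seed, bases 2 to 8, and lowers their translation and stability. miR-21 is abundant in many tissues, is raised in injured and regenerating liver and in fibrosis, and is known to repress Pdcd4, an inhibitor of translation.

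Male Sprague-Dawley rats were pair-fed a liquid diet with ethanol (EtOH) or with carbohydrate in its place (CHO), and liver was taken before (0 h) or after 70% partial hepatectomy (PHx). Untreated animals made 8 groups, in each diet at 0, 6, 24, and 72 h. Saline-treated and AM21-treated animals made 4 groups each, in each diet at 0 and 24 h. AM21 or saline was injected before surgery and again right after it, so animals at 0 h had received only the earlier injection. Each of the 16 groups held 3 animals. The labels number the animals at 0 and 24 h in sets 1 to 3, with 1 animal of every such group in each set, and place all animals at 6 and 72 h in set 4. Differences between those pairs of times therefore cannot be told apart from differences between sets, whereas 24 h against 0 h and 72 h against 6 h lie within sets. RNA came from whole liver, so fewer cells of a type and less miR-21 per cell cannot be told apart. Total counts per animal ran from 58168 to 267582 with a median of 160078.

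The sequence is shown because other miRNAs are compared with it below. RefSeq places the mature miR-21-5p at chr10:71902653-71902674 on the minus strand of GRCr8, inside the Mir21 hairpin at chr10:71902600-71902691. In the RefSeq gene table of that build the hairpin lies in no other gene, and its nearest neighbour is Vmp1, which codes for a membrane protein of autophagy and lies upstream on the same strand. The name of the measured row carries no arm. By the older naming it stands for the 5p arm, and the 3p arm has no row of its own in the table. The seed is in capitals in the mature sequence and the 5p arm is in capitals in the hairpin.
miR-21-5p: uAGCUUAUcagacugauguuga
Mir21 hairpin: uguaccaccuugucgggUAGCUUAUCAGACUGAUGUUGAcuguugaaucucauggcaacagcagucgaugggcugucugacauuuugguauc

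In untreated liver miR-21 was among the most abundant miRNAs. Its level is given as log2 CPM, the deposited base 2 logarithm of counts scaled to the library (CPM). Over the 24 untreated animals the lowest log2 CPM of miR-21 was 13.46, the median 15.04, and the highest 15.76. By the mean over these animals it held place 2 of the 143 miRNAs, at 14.84, far below the hepatocyte miRNA miR-122 at 19.15 and next to miR-29a, a repressor of collagens, at 14.82. In single untreated animals miR-21 took 1.23% to 4.94% of counts, and miR-122 took 44.5% to 64.7%. At 24 h miR-21 held place 2 in all 6 untreated animals, and at 72 h place 2 or 3. It held places 3 to 12 at 0 h and 5 to 10 at 6 h. Places by count and by log2 CPM were the same in every animal.

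**Figure D1:**
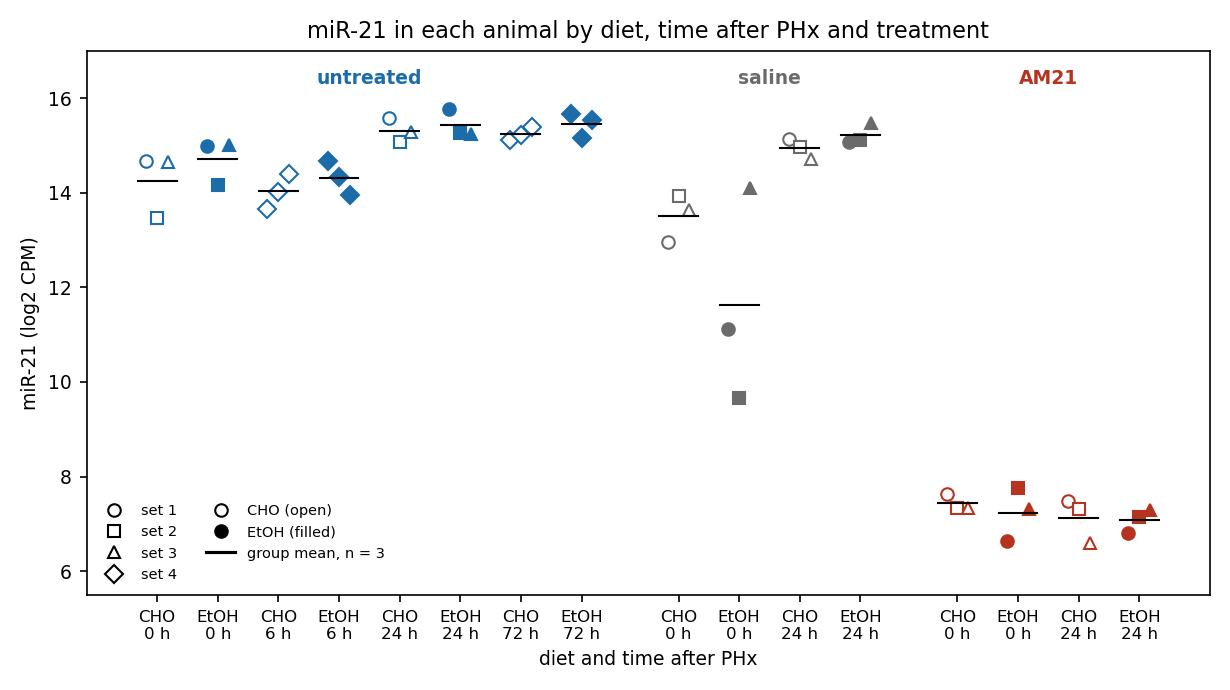
Level of miR-21 (log2 CPM, vertical axis) in each of the 48 animals, by diet, time after PHx and treatment (horizontal axis). Symbols mark the set, open symbols CHO and filled symbols EtOH, and lines the mean of 3 animals. All 12 AM21-treated animals lie between 6.59 and 7.76, below every other animal, and 2 saline-treated EtOH-fed animals at 0 h lie between them and the rest, at 9.65 and 11.12.

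The highest of the 16 group means was 15.46 ± 0.26 (SD, n = 3) in untreated EtOH-fed animals at 72 h, followed by 15.43 ± 0.29 in EtOH and 15.31 ± 0.26 in CHO at 24 h, and 15.24 ± 0.14 in CHO at 72 h. Saline-treated animals at 24 h came next, at 15.22 ± 0.22 in EtOH and 14.94 ± 0.21 in CHO. Untreated animals before surgery had means of 14.72 ± 0.48 in EtOH and 14.26 ± 0.69 in CHO. Those at 6 h had 14.32 ± 0.37 in EtOH and 14.03 ± 0.37 in CHO. The saline groups at 0 h were lower, at 13.51 ± 0.49 in CHO and 11.62 ± 2.27 in EtOH. The AM21 groups were last, with means of 7.43 ± 0.17 and 7.24 ± 0.56 at 0 h and 7.13 ± 0.48 and 7.08 ± 0.25 at 24 h, CHO before EtOH at each time. Animals of neighbouring groups in this order overlapped at every step except between the last saline group and the first AM21 group, whose means lay 4.19 apart.

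The time course asked how miR-21 changed as the liver regrew. In untreated CHO livers miR-21 had a log2 CPM of 14.66, 13.46, and 14.65 at 0 h and 13.66, 14.02, and 14.40 at 6 h. It was 15.58, 15.07, and 15.28 at 24 h and 15.11, 15.22, and 15.39 at 72 h. Every animal at 24 and 72 h was thus above every animal at 0 and 6 h, and 1 animal at 0 h, of set 2, stood below the other 2. In EtOH-fed untreated animals the values were 14.99, 14.16, and 15.00 at 0 h and 14.68, 14.33, and 13.94 at 6 h. They were 15.76, 15.27, and 15.25 at 24 h and 15.66, 15.16, and 15.55 at 72 h. Here too both late times lay above both early ones, and the animal of set 2 was again the lowest at 0 h.

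miR-21 rose by 24 h and was still high at 72 h. Over both diets the difference of 24 h minus 0 h was 0.88 (SE 0.21, limma adjusted p = 0.00527), or 1.84-fold, in a comparison in which 20.3% of the 143 miRNAs were called at an adjusted p under 0.05. With saline-treated animals added it was 1.70, a value that includes the low saline animals at 0 h described below. It was above 0 in all 3 sets of each diet, from 0.63 to 1.61 in CHO and from 0.25 to 1.11 in EtOH. The exact permutation test of miR-21 alone, with labels exchanged within diet, gave a two-sided p of 0.005, the smallest its 400 arrangements allow (0.015 after adjustment over 6 such tests). For 72 h minus 0 h the difference was 0.86 (SE 0.21, limma adjusted p = 0.00249), or 1.82-fold, with 35.7% of miRNAs called and the same exact permutation p of 0.005. Within set 4, 72 h minus 6 h was 1.17 (SE 0.21, limma adjusted p = 0.00012), or 2.26-fold, with 46.9% of miRNAs called. That comparison was added after the values were seen. With log10 of the total count as a covariate it was 0.59, called over both diets but in neither diet alone (0.58 in CHO and 0.59 in EtOH).

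No early rise was measured. At 6 h minus 0 h the difference was -0.31 (SE 0.21, 95% interval -0.74 to 0.11), with a limma adjusted p of 0.222 in a comparison that called 24.5% of miRNAs. The exact permutation p was 0.26. Without the CHO animal of set 2 at 0 h it was -0.51 with a limma adjusted p of 0.0236 (0.00234 to 0.461 over its alternatives), so 1 animal with a low value before surgery set which side of the threshold it took.

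Within single diets fewer miRNAs could be called. In CHO, 24 h minus 0 h was 1.05 (SE 0.29, limma adjusted p = 0.0616), the largest difference of any miRNA in a comparison that called 1.4%. It was called without CHO replicate 2 at 24 h (1.17, adjusted p = 0.0448) or without CHO replicate 3 at 0 h (1.25, adjusted p = 0.0355), and was 0.66 (adjusted p = 0.118) without CHO replicate 2 at 0 h. With the set as a replicate block it was called (adjusted p = 0.0268), and over all alternatives its adjusted p ran from 0.016 to 0.237. By 72 h the CHO difference reached 0.98 (SE 0.29, limma adjusted p = 0.0231), with 18.2% called. That call was lost without CHO replicate 2 at 0 h (0.59, adjusted p = 0.136), without replicate 4_7 at 72 h (1.05, adjusted p = 0.0502) and without replicate 4_9 at 72 h (0.91, adjusted p = 0.091), and its adjusted p ran from 0.0124 to 0.568 over all alternatives. In EtOH the differences were 0.71 at 24 h (adjusted p = 0.167, 1.4% called) and 0.74 at 72 h (adjusted p = 0.0856, 18.2% called). Without EtOH replicate 2 at 0 h they were 0.43 and 0.46.

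Depth moved with time. The median total of 6 untreated animals was 114141 counts before surgery and then 103644, 165119, and 204766 at 6, 24, and 72 h, and the set 2 animals at 0 h had the lowest totals of their groups, 58168 in CHO and 92245 in EtOH. With log10 of the total as a covariate, both diets together gave 0.60 for 24 h (limma adjusted p = 0.011) and, for 72 h, 0.27 (adjusted p = 0.317). Without both set 2 animals, left out after the data were seen, it was 0.54 at 24 h (adjusted p = 0.0207) and 0.52 at 72 h (adjusted p = 0.0158). The range of adjusted p over all alternatives was 0.00134 to 0.0884 for the earlier time and 0.000872 to 0.317 for the later one.

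The miRNAs most like miR-21 were ranked by Pearson's r over the 8 untreated group means, which share their libraries and depths, and the r is a description only. A late rise like that of miR-21 is built into this choice, so the differences below describe these miRNAs and are no separate evidence. miR-19b came first with r = 0.924, then miR-152 with 0.899, miR-106b with 0.885, miR-17-5p with 0.874, and miR-674-3p with 0.865. miR-17-5p is known for promoting the cell cycle and had the smallest limma p of all miRNAs for 24 h minus 0 h over both diets. It rose by 0.84 at 24 h (adjusted p = 0.000218) and by 0.73 at 72 h (adjusted p = 0.000166). miR-674-3p rose by 0.59 and 0.82 (adjusted p = 0.00527 and 7.94e-05). miR-19b rose by 0.76 (adjusted p = 0.018) and 0.64 (adjusted p = 0.0234). miR-152 and miR-106b were called at 72 h, with 0.68 and 0.46, and had differences of 0.43 and 0.27 at 24 h with adjusted p of 0.11 and 0.174. With log10 of the total as a covariate miR-19b was not called at 24 h (0.53) or 72 h (0.16), nor were miR-152 (0.14) and miR-106b (0.39) at 72 h. The calls of miR-19b were lost in 3 of 25 alternatives at 24 h and 6 of 23 at 72 h, and those of miR-17-5p and miR-674-3p in none. At 72 h the call of miR-152 was lost in 2 of 23 alternatives and that of miR-106b in 3. Over the 24 single animals r was 0.892 for miR-19b, 0.888 for miR-152, 0.809 for miR-17-5p, 0.640 for miR-674-3p, and 0.606 for miR-106b. Only miR-19b and miR-152 were among the 5 highest there.

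**Figure D2:**
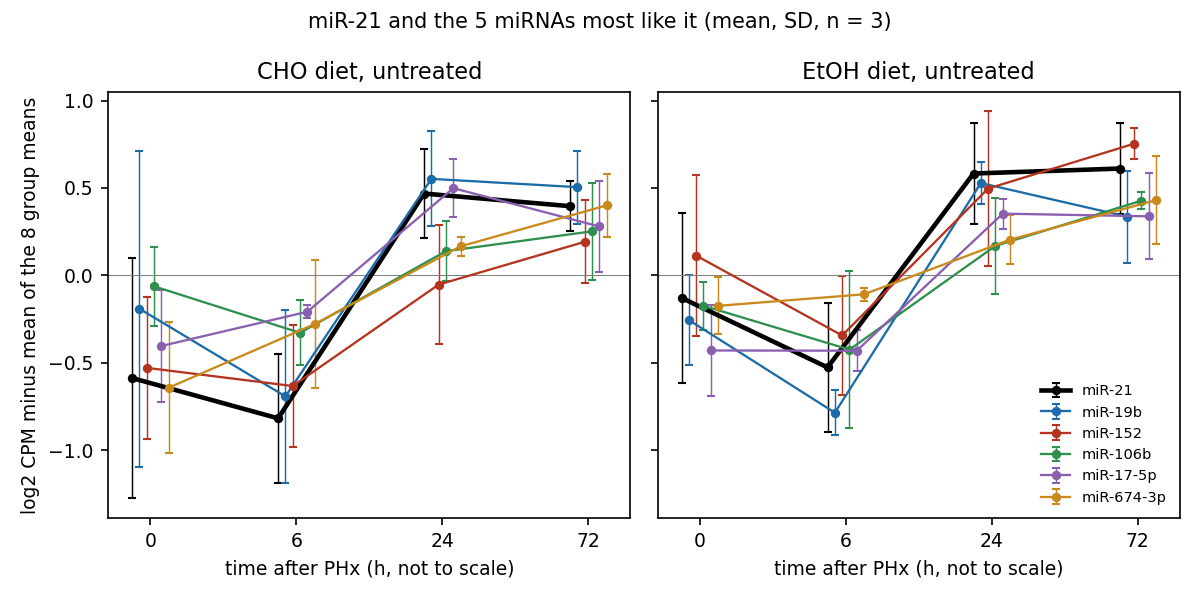
Group means of miR-21 and the 5 miRNAs most like it in untreated CHO-fed (left) and EtOH-fed (right) animals, as log2 CPM minus the mean of that miRNA's 8 untreated group means, against time after PHx. Bars are SD (n = 3), and the 5 were chosen for their likeness to miR-21 in these means, so a shared course is built in.

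Cell type markers moved over the same times. Both red blood cell miRNAs, miR-144 (the more abundant) and miR-451, fell at 72 h, by 1.16 (limma adjusted p = 0.00194) and 1.31 (adjusted p = 5.66e-05). Their summed CPM had a median of 1944 at 0 h (lowest 1306, highest 3791), 1472 at 6 h, 2760 at 24 h, and 684 at 72 h (lowest 550.4, highest 1898). The endothelial miR-126 had a median CPM of 39250 before surgery, then 18131, 28072, and 31136 at 6, 24, and 72 h. By limma it was called lower at 6 h minus 0 h (-0.89) and higher at 72 h minus 6 h (0.83). Before surgery the set 2 animals, low in miR-21, had 18149 CPM of miR-126 in CHO and 20957 in EtOH. The other untreated animals at that time had 38138 to 46454 CPM. For 3 hepatocyte miRNAs, led by miR-122, the medians were 562338, 605554, 618523, and 670331 CPM, almost all of it miR-122, while at 6 h miR-192 was called lower (-0.69, adjusted p = 0.00592) and miR-194 had -0.20. For 3 leukocyte miRNAs they were 2945, 2869, 2414, and 2827 CPM, a sum in which miR-223 rose (0.58, limma adjusted p = 0.0327) and miR-150 fell (-0.71, adjusted p = 0.00527) at 24 h. For 4 measured of 5 stellate or mesenchymal miRNAs, led by miR-145, they were 21084, 25433, 15578, and 14364 CPM, a sum that follows miR-145 (-0.73 at 72 h, adjusted p = 0.000316), while miR-199a-5p rose (0.43 at 72 h, adjusted p = 0.0292). No listed marker had a count of 0 in any animal, and the part of cell makeup in the change of miR-21 was not tested.

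Diet made little difference to miR-21 that could be measured. Averaged over the 4 times, untreated EtOH-fed animals had 0.27 more than CHO-fed animals (SE 0.15, 95% interval -0.03 to 0.57), or 1.21-fold. The limma adjusted p was 0.206, with 11.2% of miRNAs called, and the exact permutation p within times was 0.0841 (0.101 adjusted over the 6 tests). It was 0.17 without CHO replicate 2 at 0 h and 0.019 with log10 of the total as a covariate. Time by time, EtOH minus CHO was 0.46, 0.29, 0.11, and 0.21 from 0 to 72 h, all with an SE of 0.29 and limma adjusted p between 0.453 and 0.927. At 0 h the EtOH-fed animal was higher in all 3 sets, by 0.33 to 0.69. The difference at 0 h was 0.061 without CHO replicate 2, 0.74 without EtOH replicate 2, and 0.34 without both. It was 0.033 with the covariate. How far the changes from 0 h differed between diets was tested as an interaction, EtOH change minus CHO change. It was -0.17 at 6 h (95% interval -1.02 to 0.69), -0.34 at 24 h (-1.20 to 0.51), and -0.24 at 72 h (-1.10 to 0.61), with limma adjusted p of 0.988, 0.994, and 0.973.

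Saline-treated animals were the vehicle controls for AM21, and at 0 h they did not match untreated animals in miR-21. The log2 CPM of miR-21 at 0 h with saline was 12.97, 13.93, and 13.64 in CHO. In EtOH it was 11.12, 9.65, and 14.10, from 448, 120, and 3469 counts. The EtOH-fed animals of sets 1 and 2 stood apart from every other control, with miR-21 in place 36 and 62 of the 143 miRNAs. Their share of counts was 0.241% (95% Wilson interval 0.220% to 0.265%) and 0.0771% (0.0645% to 0.0921%), against 1.74% or more in untreated EtOH-fed animals at 0 h. These intervals cover counting error only. Their totals of 185564 and 155731 counts were not low.

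The other miRNAs looked at in these 2 animals were not low in this way. miR-122 was 18.99 and 19.25, against 19.01 to 19.31 in untreated EtOH-fed animals at 0 h. miR-340-5p, which fell with AM21 (below), was 8.43 and 8.66. It ran from 8.34 to 9.48 in those untreated animals and from 7.03 to 7.56 in AM21-treated EtOH-fed animals at 0 h. miR-199a-5p, which also fell with AM21, was 9.32 and 9.38, above its 8.74 to 8.91 in the untreated animals and 8.19 to 8.49 in the AM21-treated ones. miR-146a, which was higher with AM21, was 11.85, the highest of the 24 controls, and 11.25. It ran from 10.95 to 11.60 in the same untreated animals and from 11.73 to 12.22 in the AM21-treated ones. miR-1224, also higher with AM21, was 11.28 and 11.40, against 11.06 to 11.50 and 11.34 to 11.54. Summed marker CPM in the animals of sets 1, 2, and 3 was 547141, 654205, and 584862 for hepatocytes, 1435, 3085, and 5257 for red blood cells, and 2951, 2534, and 2844 for leukocytes. It was 29269, 29468, and 31137 for the endothelial miR-126 and 21949, 19961, and 19654 for stellate or mesenchymal cells. What set miR-21 apart in these animals was not tested. Leaving out both animals, as is done below, left only the animal of set 3 in EtOH saline at 0 h.

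With all animals, saline minus untreated at 0 h was -1.92 (SE 0.40, limma adjusted p = 0.00552), and miR-21 was the only miRNA called (0.699% of 143). The exact permutation p within diets was 0.025 (0.05 adjusted over the 6 tests). Without both low animals, a choice made after seeing the data, it was -0.68 (SE 0.27, limma adjusted p = 0.983, against 1.16e-08 at the lowest over its alternatives). In CHO alone it was -0.75 (SE 0.56, adjusted p = 0.963). At 24 h saline minus untreated was -0.29 (SE 0.40, 95% interval -1.10 to 0.53), with an adjusted p of 0.962 and an exact permutation p of 0.07. The saline animals at 24 h were 15.14, 14.97, and 14.72 in CHO and 15.07, 15.11, and 15.48 in EtOH, and 3 of the 6 lay below the lowest untreated value at that time, 15.07. The difference between the 2 times in the saline effect was 1.63 (SE 0.56, 95% interval 0.48 to 2.78, limma adjusted p = 0.695), the largest of any miRNA. It was 0.39 without both low animals. Without EtOH replicate 3 at 0 h it was 2.25 with an adjusted p of 8.3e-05 (up to 0.979 over its alternatives).

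The rise after PHx was also present in saline-treated liver. The 24 h minus 0 h difference there was 2.52 (SE 0.40, limma adjusted p = 8.16e-05), or 5.72-fold, and 9.79% of miRNAs were called. Without both low animals it was 1.28 (SE 0.27, adjusted p = 0.00827, with 7.61e-11 to 0.0155 over its alternatives), or 2.42-fold, and 3 miRNAs were called in place of 14. Each of the 3 sets had a higher value at 24 h in both diets, by 1.03 to 2.18 in CHO and 1.38 to 5.46 in EtOH.

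With AM21 the signal of miR-21 went from the top of the table to its bottom. The log2 CPM of miR-21 with AM21 at 0 h was 7.63, 7.34, and 7.33 in CHO and 6.65, 7.76, and 7.31 in EtOH. At 24 h it was 7.49, 7.32, and 6.59 in CHO and 6.80, 7.15, and 7.29 in EtOH. The highest of these 12 values was below the lowest of the 24 controls, 9.65, and far below their median of 14.98. Behind them were 15 to 32 counts per animal, against 120 to 9934 in controls. In 2 of the 12 animals miR-21 was the lowest of all 143 miRNAs, and in the others 1 to 11 miRNAs had lower counts. Its share of counts was 0.00763% to 0.0218%. An exact Poisson interval at 95% ran from 8.4 for the lowest of these counts up to 45.2 for the highest, and since negative control probes were not used here, whether any miR-21 was left cannot be told. The folds that follow are therefore folds of signal, with background not taken off, and are not measures of the miR-21 that remained. Whether miR-21 was lost from the liver or was present but not counted was not tested.

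Against untreated animals the signal of miR-21 with AM21 was 142-fold lower at 0 h, a log2 difference of -7.15 (SE 0.40, limma adjusted p = 1.65e-15, 4.2% of miRNAs called). At 24 h it was 307-fold lower, a difference of -8.26 (SE 0.40, adjusted p = 2.84e-17, 3.5% called). Measured against the untreated animal of the same set, diet and time, the fall was 69.4-fold at the least, 232-fold at the median, and 499-fold at the most over the 12 pairs. Against saline it was 37.5-fold at 0 h (difference -5.23, SE 0.40, adjusted p = 7.33e-12, 2.8% called) and 252-fold at 24 h (-7.98, SE 0.40, adjusted p = 7.74e-17, 2.1% called). Without both low saline animals the fall at 0 h against saline was 88.5-fold (difference -6.47, SE 0.27). The same 2 animals moved the difference over both times and all controls from -7.46 without them to -7.15 (SE 0.24, adjusted p = 1.31e-21) with them.

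The rise after PHx was not measured under AM21. The 24 h minus 0 h difference was -0.23 (SE 0.40, 95% interval -1.05 to 0.58, limma adjusted p = 0.702), at counts that lay near the lowest of the table at both times. Measured against untreated animals, the effect of AM21 differed by -1.11 between 24 and 0 h (SE 0.56, 95% interval -2.27 to 0.04, adjusted p = 0.83). Against the same controls it differed by -0.41 between EtOH and CHO (SE 0.56, 95% interval -1.56 to 0.74, adjusted p = 0.872). Against saline these differences were not tested, and the diets did not keep that order. The falls were -6.08 in CHO and -4.38 in EtOH at 0 h, and -7.81 and -8.14 at 24 h. Without both low animals the fall in EtOH at 0 h was -6.86, against the saline-treated animal of set 3 alone. With AM21 values this near the bottom of the table, the differences measured against untreated or saline-treated animals rest mainly on those controls. The SEs of all treatment comparisons share an estimate of spread over the 12 groups at 0 and 24 h. That estimate takes in EtOH saline at 0 h, with an SD of 2.27, even where saline was not compared. The intervals given here are thus not the spread of the compared animals alone.

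AM21 moved few other miRNAs. Against all controls 5.59% of the 143 miRNAs were called, which were miR-21, 5 others that were lower and 2 that were higher. The 5 lower ones were miR-340-5p, miR-199a-5p, miR-199a-3p, miR-497, and miR-361, and the higher ones were miR-1224 and miR-146a. Of these, miR-199a-3p and miR-497 were outside the rule for named miRNAs and are named after their values were seen.

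Antisense oligonucleotides pair with sequences complementary to them, so the measured miRNAs were compared with miR-21-5p by the longest run of bases both share on the same strand. RefSeq held mature sequences for 124 of the 143 measured names. None of the other 123 shared the seed of miR-21. The 5 with the longest run are shown, with the shared run in capitals.
miR-743b-5p: uguUCAGACUGguguccaucau
miR-340-5p: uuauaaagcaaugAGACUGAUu
miR-361-5p: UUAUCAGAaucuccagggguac
miR-499-5p: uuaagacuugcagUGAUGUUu
miR-199a-5p: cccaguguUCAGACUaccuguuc
The runs of miR-743b-5p, miR-340-5p, and miR-361-5p have 8 bases and match bases 8 to 15, 10 to 17, and 5 to 12 of miR-21-5p. Those of miR-499-5p and miR-199a-5p have 7 bases and match bases 14 to 20 and 8 to 14. The table names miR-743b, miR-361, and miR-499 without an arm, and the run lies in their 5p arm. Of the 5, 3 were lower with AM21, where 3.52% of the 142 miRNAs other than miR-21 were called lower. Of the 12 whose longest run has 6 bases and the 32 with 5 bases, none was called lower by limma, and of the 74 with shorter runs 2 were. Where a name carries no arm, the arm with the longer run was taken, which may not be the arm measured. The sequence of AM21 and those of the probes were not used here, and what links the shared bases to the change was not tested.

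**Figure D3:**
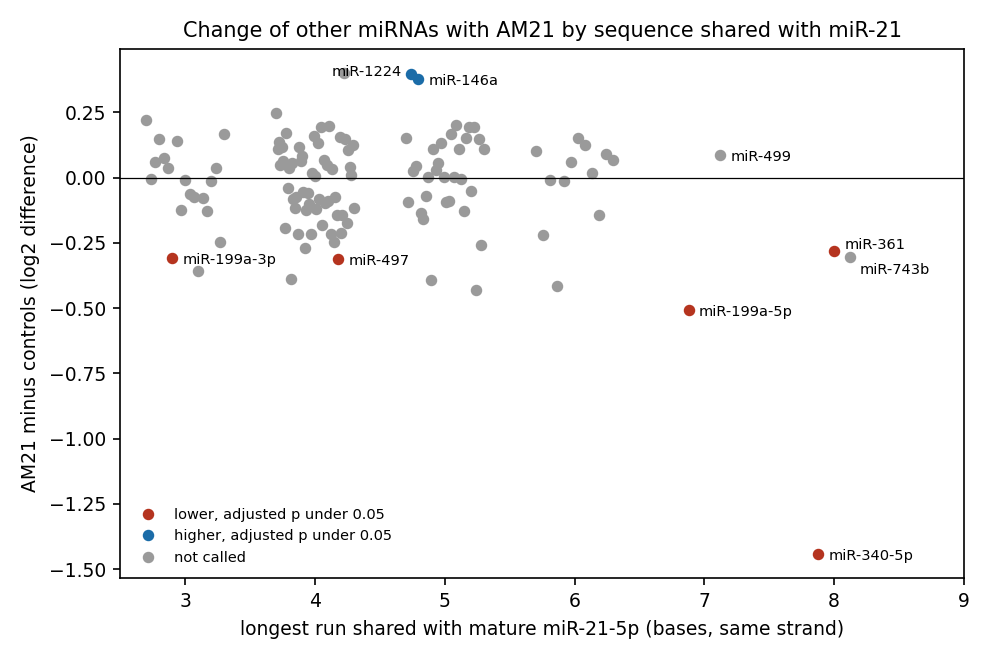
Log2 difference of AM21 minus controls (vertical axis) for the 123 matched miRNAs other than miR-21, against the longest run of bases each shares with miR-21-5p (horizontal axis, points spread sideways only to keep them apart). Red and blue mark miRNAs called lower and higher, and miR-340-5p, with a run of 8 bases and a difference of -1.44, lies below all others.

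miR-340-5p had the largest fall in signal after miR-21, at counts as low as those of miR-21, so that its background is likewise unknown. Its log2 CPM over the 12 AM21-treated animals was 6.04 at the lowest, 7.46 at the median, and 8.37 at the highest, from 12 to 42 counts. Over the 24 controls it was 7.73, 8.78, and 9.48, from 13 to 145 counts. The 2 ranges overlapped by 2 animals on each side. The difference was -1.44 (SE 0.17, limma adjusted p = 9.41e-08). It was -1.53 against untreated and -1.41 against saline at 0 h, and -1.47 and -1.36 at 24 h, with adjusted p from 0.000323 to 0.00127.

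miR-199a-5p is a miRNA of mesenchymal cells that is raised in activated stellate cells. It was lower by limma with AM21 by -0.51 (SE 0.08, adjusted p = 1.26e-05), from a median of 9.27 in controls (lowest 8.56, highest 9.79) to 8.79 (lowest 8.19, highest 9.32). The ranges overlapped. Against saline it was -0.71 at 0 h and -0.64 at 24 h (adjusted p = 0.000234 and 0.00123), and against untreated animals -0.44 and -0.23 (adjusted p = 0.0472 and 0.571). miR-361 differed by -0.28 (SE 0.08, adjusted p = 0.0302), a call that was lost in 15 of 47 alternatives, whose adjusted p ran from 0.014 to 0.117. Its difference against untreated animals was -0.05 at 0 h (adjusted p = 0.95) and -0.60 at 24 h (adjusted p = 0.00396), and against saline -0.10 and -0.37 (adjusted p = 0.832 and 0.211). miR-743b had -0.31 (adjusted p = 0.324) and miR-499 had 0.09 (adjusted p = 0.648). Calls were also lost for miR-199a-3p (-0.31, adjusted p = 0.0186) in 4 of 47 alternatives and for miR-497 (-0.31, adjusted p = 0.0302) in 10. Without both low saline animals 5 miRNAs were called in place of 8, and miR-361 (adjusted p = 0.116), miR-199a-3p (0.0524), and miR-497 (0.0793) were not among them. The number was also 5 without CHO replicate 2 at 0 h or EtOH replicate 1 at 24 h of the AM21-treated animals.

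The study relates 5 miRNAs to miR-21 by Pearson correlation, which was positive for miR-340-5p and negative for the other 4. The values here are log2 differences, which is another measure. The 5 were chosen on these samples, so their direction here is no independent evidence. Outside these samples, the study reports that AM21 raised miR-146a in a human stellate cell line. Besides miR-340-5p, miR-146a, a brake on innate immune signalling, was higher with AM21 by 0.38 (SE 0.09, limma adjusted p = 0.00531). This was called against untreated animals (0.49 at 0 h and 0.51 at 24 h, adjusted p = 0.0472 and 0.0366) and not against saline (0.23 and 0.28, adjusted p = 0.796 and 0.640). miR-1224 was higher by 0.40 (SE 0.09, adjusted p = 0.00531) and was called in none of these 4 comparisons. let-7a had 0.25 (adjusted p = 0.0822), was called in 7 of 47 alternatives and in none of the 4 comparisons. miR-365 had 0.15 (adjusted p = 0.324) and was called in 1 of them, against untreated animals at 0 h (0.45, adjusted p = 0.0472). For 24 h minus 0 h over both diets, differences of these 5 were between -0.30 and 0.20 and none was called by limma, where 20.3% of all miRNAs were.

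Lists of miRNAs that change as hepatic stellate cells, the collagen-producing cells of liver, become activated were set beside miR-21. miR-21 is itself on the study's list that rises and was left out of every count and median of the lists below. Shares and medians over all miRNAs include it. With AM21, 1 of 13 measured members of the list that rises (miR-199a-5p, lower) and 1 of 21 measured members of the list that falls (miR-146a, higher) were called, where 5.59% of all miRNAs were. Their median differences were 0.04 and 0.10, against 0.00 (0.0031) over all 143 miRNAs. The next members by limma p were miR-132 (-0.39, adjusted p = 0.091) and miR-221 (-0.22, adjusted p = 0.324) in the first list, and let-7f (0.22, adjusted p = 0.117) and miR-29a (0.15, adjusted p = 0.324) in the second. For 24 h minus 0 h over both diets, 1 member of the first list besides miR-21 was higher (miR-132, by 0.74). In that list 2 were lower (miR-22 and miR-145, -0.42 and -0.43), with a median of 0.01. In the second list 1 was higher and 4 were lower, among them miR-99a (-0.66), miR-150 (-0.71), and miR-181a (-0.60), with a median of 0.07 against 0.04 over all miRNAs, of which 20.3% were called. At 6 h minus 0 h, 4 of the first list were higher and 1 lower (median 0.22) and 1 of the second was higher and 5 lower (median -0.20), against a median of 0.07 over all miRNAs, of which 24.5% were called. At 72 h minus 0 h, 3 were higher and 2 lower (median -0.016) and 3 were higher and 6 lower (median -0.0022), against 0.03 and 35.7%. miR-21 itself was not raised at 6 h.

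Marker levels were also set beside the AM21 result. Stellate or mesenchymal miRNAs had a summed CPM of 17743 at the median of AM21-treated animals (lowest 13099, highest 19929) and 19385 in controls (lowest 13750, highest 24946), and 2 of 4 measured members were called lower, miR-199a-5p and, less firmly as given above, miR-199a-3p, where 3.52% of miRNAs other than miR-21 were. Red blood cell miRNAs had 1089 (lowest 752.2, highest 5974) and 1921 (lowest 407.5, highest 5257). Hepatocyte miRNAs had 629841 (lowest 490563, highest 874395) and 593509 (lowest 332267, highest 742994). Leukocyte miRNAs had 2699 and 2610 and the endothelial miR-126 had 34035 and 29082. No marker of these last 4 kinds was called by limma against all controls, and miR-451 was called lower against untreated animals at 24 h (-1.26, adjusted p = 0.0175) but not against saline (-0.12, adjusted p = 0.922). Their part in the fall of the other miRNAs was not tested.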

How the data were processed

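The authors deposited log2 CPM (log-cpm) of 143 miRNAs in 48 livers, which they made with TMM and then voom from NanoString nCounter counts. limma is named in the submitters' processing notes, and the filter that kept these miRNAs is not given in the sources used here. Whole counts were recovered from the deposited log2 values with voom's prior count of 0.5, all within 0.001 of a whole number, and totals were 58168 to 267582 counts.

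With limma 3.58.1 (R 4.3.3), linear models and empirical Bayes were run on the log2 CPM of all 143 miRNAs with one mean per group. Time and diet were compared over the 24 untreated animals in 8 groups, and treatments over the 36 animals at 0 and 24 h in 12 groups. For every comparison the false discovery rate (Benjamini-Hochberg) was taken over all miRNAs, and an adjusted p below 0.05 was called. The fit was tested on simulated data. Exact two-sided permutation tests of miR-21 alone used scripts in Python 3.11.15, and intervals of counts used scipy 1.17.1. Values of different miRNAs come from different probes, so levels were ranked only as deposited.

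Named miRNAs were the highest miRNA and those next to miR-21, the 5 with the highest r, the 5 with the longest shared run (ties by edit distance), those the study relates to miR-21, and of each list the 3 with the smallest p at 24 h and with AM21. The members and lists were chosen with earlier results of these data known. Alternatives were 3 other scalings, at least 50 counts in 3 animals (138 miRNAs), voom weights, robust eBayes, log10 total as a covariate, other sets of animals, a replicate block, and leaving out each animal in turn. Replicate pairs of a group differed beyond sampling noise (chi-square per degree of freedom 4.8 or more in all 48 pairs). Figures were drawn with matplotlib 3.10.9.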

Additional observations from a re-analysis of the deposited data

How the results depend on the processing

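Of 29 planned differences of miR-21, 15 kept their direction and their side of the threshold under every alternative, and 653 of 689 single recomputations did. Of 20 differences added later, 12 did, and 335 of 349 recomputations. Among these the calls of EtOH saline minus untreated at 0 h (-3.09) and of EtOH saline 24 h minus 0 h (3.60) were lost with only the groups compared. Without both low animals these differences were -0.62 and 1.12 and rest on the set 3 animal alone for EtOH saline at 0 h. The calls of 72 h minus 6 h in CHO (1.21) and EtOH (1.14) were lost with all 48 animals in one fit and with log10 total as a covariate (0.58 and 0.59). CHO saline 24 h minus 0 h (1.43) was called with only the groups compared and with all 48 animals but both low ones, and the diet difference in the saline effect without EtOH saline replicate 3 (-3.59). Each fall of miR-21 with AM21 over both diets was called in all of its alternatives. The fall against saline in EtOH alone at 0 h (-4.38, added later) was not called with only the groups compared (adjusted p = 0.0843), and was -6.86 without both low animals. The cause was not tested for any change that follows, unless given.

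With log10 total as a covariate, the change at 72 h was 0.27 over both diets and 0.25 in CHO, EtOH minus CHO at 24 h was -0.085, and the interactions at 6 and 72 h were 0.023 and 0.039. With all 48 animals in one fit, the changes over both diets of 0.88 at 24 h (adjusted p = 0.0884, range over its alternatives 0.00134 to 0.0884) and 0.86 at 72 h (0.0597) and the CHO change of 0.98 at 72 h (0.164) were not called. Without both low saline animals that fit called all 3 (0.00329, 0.00131 and 0.0168) and also CHO at 24 h (1.05). Fits on only the groups compared did not call CHO at 72 h (0.98) or saline minus untreated at 0 h (-1.92), which the exact permutation test did not call either (-1.92) and which was -0.68 without both low animals. CHO at 24 h was called with scaling to the 100 highest miRNAs (0.97), to the total without miR-122 (1.03), with voom weights (1.06) and with the replicate block (1.05), and EtOH at 72 h with the total without miR-122 (0.71). Without the untreated set 2 animals at 0 h, 6 h minus 0 h was called in CHO (-0.63), EtOH (-0.68) and both (-0.65), and CHO at 72 h (0.59) was not.

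Leaving out single animals gave 0.66 to 1.26 for CHO at 24 h, 0.59 to 1.18 for CHO at 72 h, -0.51 to -0.21 for both diets at 6 h, 0.11 to 0.48, -0.053 to 0.25 and 0.11 to 0.36 for EtOH minus CHO at 6, 24 and 72 h, 1.14 to 2.25 for the saline effect by time, -0.38 to -0.096 for AM21 24 h minus 0 h, and -0.55 to -0.21 for the AM21 effect by diet. For the interactions it gave -0.45 to 0.23 at 6 h, -0.62 to 0.054 at 24 h and -0.52 to 0.15 at 72 h. In such fits the lone pair of a group was assumed to vary like the others. The diet difference in the saline effect at 0 h (-2.35, added later) was 0.13 without both low animals, and the change with AM21 in EtOH from 0 to 24 h (-0.16, added later) ran from -0.46 to 0.10 as single animals were left out.

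Set numbers did not pair the animals in general: deviations of same-numbered animals correlated above 0.1 in all 3 sets in 5 of 24 pairs of groups. Among these pairs were EtOH and CHO untreated at 0 h (r = 0.52, 0.79, and 0.65 in sets 1 to 3). Another was CHO untreated at 24 and 0 h (r = 0.12, 0.30, and 0.28). The replicate block changed no other call of miR-21, and with it miR-152 was called at 24 h (0.43). Of the 5 miRNAs most like miR-21, 2 were among the 5 highest over single animals and 1 over 12 control group means. Over those 12 means, which include the saline groups, r was 0.572 for miR-19b and 0.307 for miR-152. It was 0.676 for miR-106b, 0.576 for miR-17-5p, and 0.565 for miR-674-3p. Counts of 15 to 32 limit every difference among AM21-treated animals.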
